A study of Homo sapiens with 6 samples.

Results

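The short arm of human chromosome 9 (9p) carries 10 genes around the palmitoyltransferase gene ZDHHC21 whose probe set values were lower in BRCA2 knockout cells than in wild-type cells. In order from the end of the arm towards the centromere they are KDM4C, DMAC1, LURAP1L, MPDZ, NFIB, ZDHHC21, TTC39B, SNAPC3, PSIP1 and CNTLN. They were picked out of 13139 measured genes for that decrease, so their differences are given as a description and without a test. All 10 were found, each through 1 probe set with exactly 1 gene symbol. The tested cells were HCT116 BRCA2-/- cells, in which both alleles of BRCA2 had been targeted in turn by homologous recombination, and they were set against HCT116 cells of the wild-type genotype. HCT116 is a human colon carcinoma line. Each genotype was measured on 3 arrays that the labels call technical replicates, so errors and p-values measure how arrays vary, which may be technical alone. Each genotype is 1 line, and what the lines differ in besides BRCA2 cannot be told apart from its loss. DNA copy number was not measured.

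BRCA2 acts in the repair of broken DNA by homologous recombination, and cells without it repair double-strand breaks less faithfully. A chromosome arm holds genes with unrelated tasks, and neighbours on it share their place and often their number of copies. The genes of the cell cycle inhibitors CDKN2A and CDKN2B and the cluster of type I interferon genes lie on 9p, and loss of parts of this arm is well known in human tumours. The 10 genes serve different compartments. KDM4C, PSIP1, NFIB and SNAPC3 act in the nucleus on chromatin and transcription, ZDHHC21 and MPDZ at membranes, DMAC1 in mitochondria and CNTLN at the centrosome.

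Promoter sequences are shown for ZDHHC21, the gene with the largest difference, for LURAP1L and TTC39B, which follow it in size, and for MOB3B, a gene of the same arm that rose. Each is the RefSeq stretch of 300 bases, from 250 before to 50 after the first gene start listed, on GRCh38.p14, read 5′ to 3′ on the gene's strand. Other starts of TTC39B are not shown. Capitals mark matches on either strand to any of 4 motifs: TATAAA, the TATA box; CCAAT, the site named after its letters; GGGCGG, the GC box; and TGACGTCA, the cyclic AMP response element. The positions are chr9:14693383-14693682 (minus strand) for ZDHHC21, chr9:12774770-12775069 (plus strand) for LURAP1L, chr9:15307167-15307466 (minus strand) for TTC39B and chr9:27529765-27530064 (minus strand) for MOB3B.
ZDHHC21: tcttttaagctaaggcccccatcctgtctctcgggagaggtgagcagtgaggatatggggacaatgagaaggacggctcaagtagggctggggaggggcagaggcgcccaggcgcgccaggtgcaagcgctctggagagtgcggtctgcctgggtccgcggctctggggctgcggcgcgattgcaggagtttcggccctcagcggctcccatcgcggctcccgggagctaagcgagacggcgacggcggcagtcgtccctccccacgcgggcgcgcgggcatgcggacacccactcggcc
LURAP1L: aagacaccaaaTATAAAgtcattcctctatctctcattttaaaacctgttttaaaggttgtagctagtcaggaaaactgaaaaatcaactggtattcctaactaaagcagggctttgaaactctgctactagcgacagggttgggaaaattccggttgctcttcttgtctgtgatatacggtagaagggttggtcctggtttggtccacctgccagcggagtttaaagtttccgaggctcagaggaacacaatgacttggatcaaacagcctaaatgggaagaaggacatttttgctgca
TTC39B: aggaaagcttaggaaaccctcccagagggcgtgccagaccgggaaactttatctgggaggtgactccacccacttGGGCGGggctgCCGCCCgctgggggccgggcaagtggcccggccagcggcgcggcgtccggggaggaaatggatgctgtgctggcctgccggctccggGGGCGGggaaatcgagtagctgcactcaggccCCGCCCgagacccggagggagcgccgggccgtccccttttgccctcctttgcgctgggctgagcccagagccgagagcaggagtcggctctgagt
MOB3B: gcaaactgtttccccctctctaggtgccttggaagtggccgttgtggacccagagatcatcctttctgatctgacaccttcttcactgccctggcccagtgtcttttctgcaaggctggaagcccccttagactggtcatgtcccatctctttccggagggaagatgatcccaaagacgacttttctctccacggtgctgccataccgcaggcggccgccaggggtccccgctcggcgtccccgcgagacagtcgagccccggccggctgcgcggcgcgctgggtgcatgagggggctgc
The ZDHHC21 promoter held 30 CpG and none of the 4 motifs, and that of MOB3B held 19 CpG and likewise none. LURAP1L had 5 CpG and 1 match to TATAAA, and TTC39B had 25 CpG and 4 matches to GGGCGG or its reverse complement. The median over 27305 RefSeq genes was 14 CpG. Among the 10 promoters, GGGCGG was found in 5 (44.6% of all), CCAAT in 2, those of MPDZ and NFIB (35.7% of all), TATAAA in 1 (11.95% of all) and TGACGTCA in 0 (1.98% of all). The promoters of the 10 genes thus ranged from 5 CpG in LURAP1L to 37 in NFIB, with no motif of the 4 present in all of them.

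The arrays differed in their distributions, which bears on every value below. The median log2 value was 7.41, 7.80 and 7.41 on knockout arrays 1, 2 and 3, and 7.71, 7.36 and 7.48 on wild-type arrays 1, 2 and 3. Over all probe sets, knockout array 2 correlated more with wild-type array 1 (r = 0.924) than with knockout arrays 1 (r = 0.876) and 3 (r = 0.893). Over all genes the median difference was 0.07. This is small beside the differences of the 10 genes, though not beside every median given below for parts of 9p. The targeted gene, BRCA2, was not analysed here, as no probe set used carried its symbol. Of 9 colon epithelial markers, 6 had a mean over the 6 arrays above the median of all probe sets (7.48), among them EPCAM, CDH1, KRT8, KRT18, KRT19 and CDX2, while VIL1, LGALS4 and CEACAM5 lay below it. No marker passed the test between genotypes at an adjusted p under 0.05 in limma. Against 14.1% of all genes, 4 of the 9 were higher in knockout without overlap. Of these the adhesion gene CDH1 was at 11.34, 11.33 and 11.64 in knockout and 10.28, 10.34 and 10.25 in wild type (difference 1.15 ± 0.24), and its part in the results below was not tested. The summed log2 level of these 9 was 82.6 to 89.3 in knockout and 79.8 to 83.7 in wild type. Of 3 measured leukocyte markers CD68 lay above the median of all probe sets (9.13 in knockout and 8.62 in wild type), and of 6 markers of fibroblasts and endothelium COL1A1 did (8.64 in knockout and 7.53 in wild type). CD68 and COL1A1 were likewise higher in knockout without overlap.

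Among the nuclear genes, KDM4C encodes a demethylase of histone H3 lysines 9 and 36. It was at 5.33, 6.42 and 6.06 on the knockout arrays, against 7.90, 6.80 and 7.22 on the wild-type arrays, a log2 difference of -1.37 ± 0.41 (SE). The genotypes did not overlap; knockout array 2 and wild-type array 2 came closest. PSIP1, which encodes the chromatin tether LEDGF/p75, also known as the cofactor that HIV integrase binds, had values of 8.30, 8.44 and 7.91 in knockout and 9.71, 9.45 and 9.65 in wild type. Its difference of -1.38 ± 0.26 came with little spread within each genotype, and the groups stood well apart. SNAPC3, a subunit of the complex that starts transcription of small nuclear RNA genes, was measured at 8.22, 8.88 and 8.48 in knockout and at 9.92, 9.74 and 9.83 in wild type. The groups stood apart there too, with a difference of -1.30 ± 0.27, or 40.5% of the wild-type level on the linear scale. NFIB, a transcription factor of the nuclear factor I family, behaved less uniformly, at 5.51, 7.22 and 5.81 in knockout and 7.53, 6.33 and 7.26 in wild type. Knockout array 2 was above wild-type array 2, the groups overlapped, and the difference of -0.86 ± 0.53 was the smallest of the 10. It was -0.53 without knockout array 1 and -1.38 without knockout array 2. In the second case those of DMAC1 (-1.07), CNTLN (-1.18) and MPDZ (-1.20) were smaller.

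ZDHHC21 encodes an enzyme that attaches palmitate to cysteines of other proteins, and its difference was of another order than that of its neighbours. Its values were 0.21, 1.39 and -3.37 on the knockout arrays and 8.88, 8.45 and 8.23 on the wild-type arrays, a difference of -9.11 ± 1.11. The knockout values lay at the bottom of the scale, where only 4.16 to 5.66% of probe sets were under 4 on the same arrays, and their SD was 2.48. With values under 4 set to 4 the difference was -4.52, so its size is poorly determined, but it remained more than that of any other member. MPDZ, a scaffold protein with many PDZ domains at tight junctions, was at 4.82, 4.09 and 4.51 in knockout and 6.17, 6.20 and 5.22 in wild type (difference -1.39 ± 0.37). These values did not overlap but were low in both genotypes.

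DMAC1, which encodes a factor for the assembly of respiratory complex I, gave 6.43, 6.50 and 6.55 in knockout and 7.53, 7.43 and 7.74 in wild type. With SDs of 0.06 and 0.16 this was the most even of the 10, and its difference of -1.07 ± 0.24 corresponds to 47.7% of the wild-type level. CNTLN, which encodes the centrosomal protein centlein, had values of 5.05, 5.17 and 4.56 in knockout and 6.34, 5.12 and 6.49 in wild type (difference -1.06 ± 0.42). The groups overlapped there by 0.05, on knockout array 2 and wild-type array 2.

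LURAP1L, a gene for a leucine-rich adaptor protein, was at 6.54, 6.88 and 6.58 in knockout and 8.84, 8.52 and 8.22 in wild type. Its difference of -1.86 ± 0.28 left 27.5% of the wild-type level, and the groups stood well apart. TTC39B, which has been linked in mice to the turnover of the sterol receptor LXR, was at 4.78, 5.87 and 4.72 in knockout and 7.75, 6.56 and 6.73 in wild type (difference -1.89 ± 0.46). The groups did not overlap, and 1 array of each genotype stood above its fellows. Like MPDZ and CNTLN, TTC39B was among the dimmest 30% of probe sets by mean over the arrays.

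**Figure D1:**
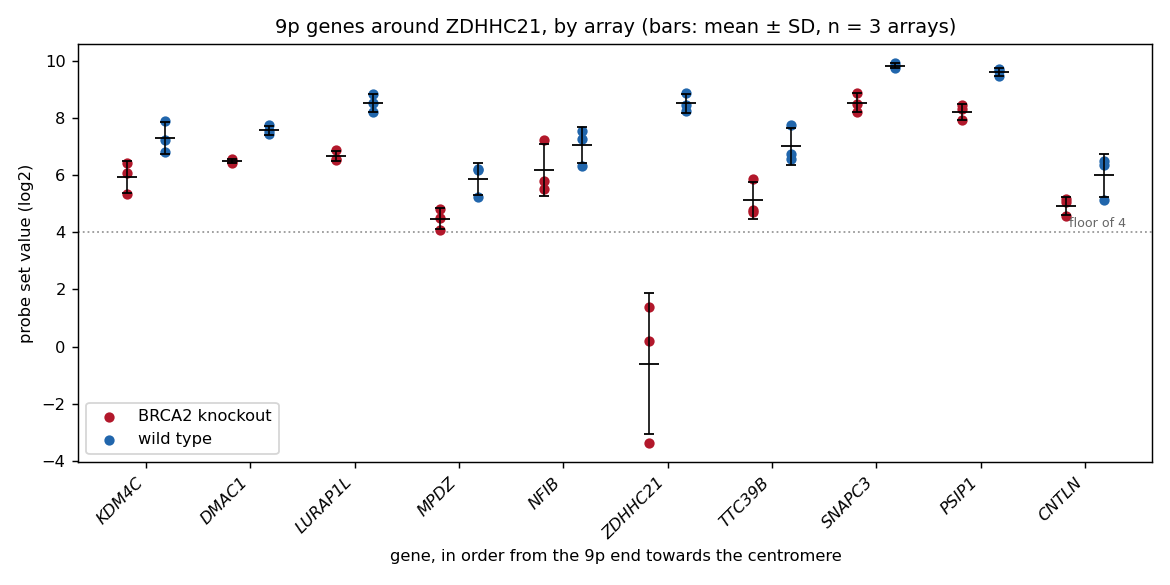
Probe set values (log2) of the 10 genes in order along 9p, with BRCA2 knockout arrays in red to the left of wild-type arrays in blue; points are arrays and bars are means ± SD (n = 3). Knockout arrays lie below all wild-type arrays in 8 of 10 genes, the exceptions being NFIB and CNTLN, and ZDHHC21 drops under the dotted line at 4.

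Across the 10 genes the knockout arrays lay below all wild-type arrays in 8, whereas 7.08% of all genes had that pattern. That share says nothing further about the 10, because they were chosen by this contrast. For the same reason no calls are given for them; limma called 111 of 19458 probe sets (0.57%) at an adjusted p under 0.05, of which 30 (0.154%) were lower and 81 (0.416%) higher. Apart from ZDHHC21, differences ran from -1.89 to -0.86 with a median of -1.37, which is 27.0% to 55.0% of the wild-type level. The spread of these 9 differences (SD 0.35) was of the size of their standard errors. Knockout array 2 was the highest knockout array in 8 of 10 genes, and wild-type array 1 the highest wild-type array in 7. Those arrays also had the highest medians, and after each array was centred on its median the counts were 4 and 4. Centring left NFIB as the one gene with overlap, and without those 2 arrays the genotypes did not overlap in any of the 10. Fewer arrays make a lack of overlap easier to reach, and its share over all genes was not taken for that setting.

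The next comparison asked how far along the arm the decrease went. In all, 118 genes of 9p were measured, or 116 of its 210 protein-coding RefSeq genes and 2 others. On the side of the chromosome end, 21 of 23 genes were lower in knockout, with a median difference of -0.95, whereas 45.3% of all genes were lower. The arrays did not overlap for 13 of the 23 genes, all lower, and for GLIS3, which was higher. Of all genes, 7.08% were lower and 14.1% higher without overlap. Between the outermost of the 10 genes lay 4 other measured genes, FREM1, PTPRD, TYRP1 and CCDC171, and 3 of these were higher. Towards the centromere the 81 genes were divided into 42 lower and 39 higher, with a median of -0.04. Without overlap, 17 of the 81 (21.0%) were lower and 11 higher.

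The profile of the arm, looked at gene by gene, shows a stretch from SLC1A1, a glutamate transporter gene, to C9orf72, whose repeat expansion is known from motor neuron disease. These ends were chosen after the values were seen, so the counts within them are a description. The stretch held 54 measured genes, of which 42 were lower and 12 higher (median -1.03, or 49.0% of the wild-type level). For 31 of them (57.4%) the knockout arrays lay below all wild-type arrays, and for 3 above, against 7.08% and 14.1% of all genes. Without the 10 chosen genes, 32 of 44 were lower, 23 of them with no overlap, and the median was -0.86. From ACO1, the next measured gene after C9orf72, to ALDH1B1, the last measured on the arm, 25 of 55 were lower and 30 higher. Their median was 0.13, and 5 were lower and 8 higher without overlap. Between C9orf72 and ACO1 the RefSeq table lists 2 protein-coding genes, LINGO2 and LOC124902135, which were not analysed here. Of the 356 genes beyond CNTNAP3, taken here as the long arm, 34.6% were lower and the median was 0.19. At the other end, 7 of the 9 genes from DOCK8 to GLIS3 were lower and 2 higher, with a median of -0.36. The share lower, 77.8%, was the same as in the stretch, so it does not set the stretch apart on this side. The chromatin remodeller gene SMARCA2 (-1.17 ± 0.37) and the ribosome biogenesis gene PUM3 (-0.87 ± 0.31) were lower without overlap. These 2 are 22.2% of the 9, against 7.08% of all genes.

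**Figure D2:**
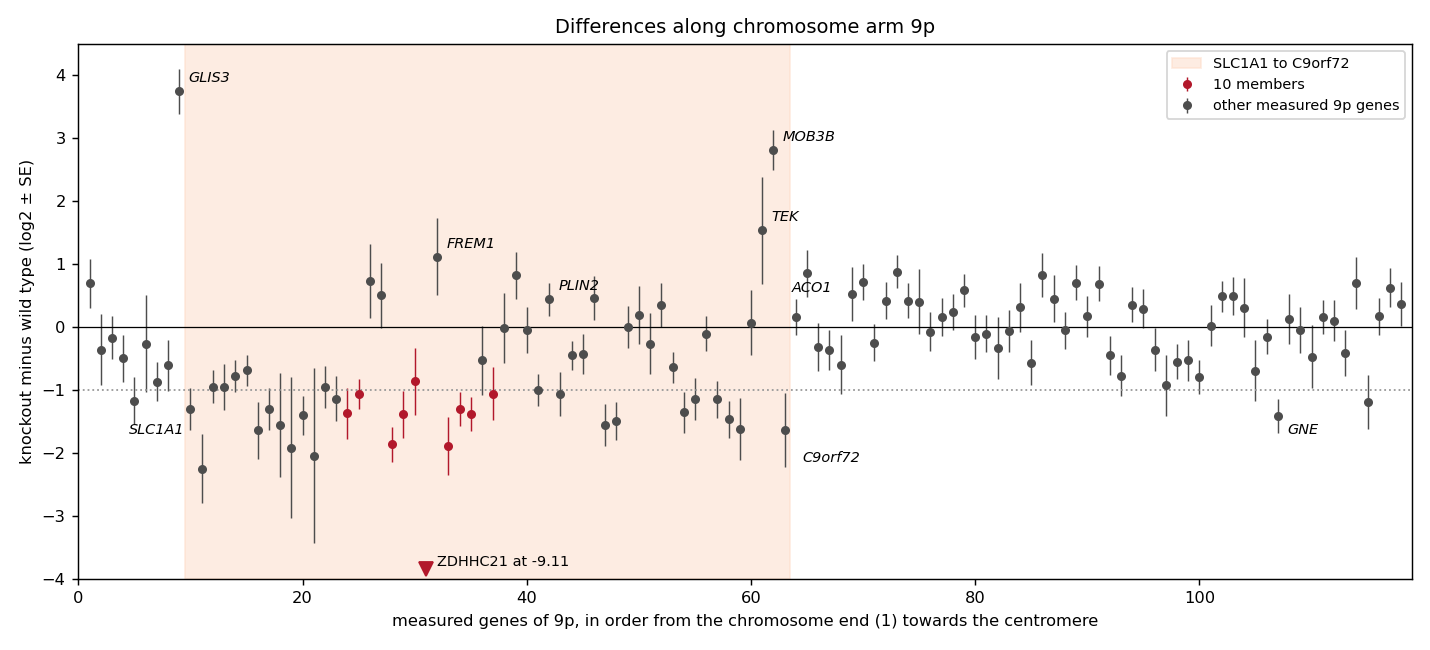
Difference between knockout and wild type (log2, ± SE of the limma fit, n = 3 arrays per genotype) for the 118 measured genes of 9p in order from the chromosome end towards the centromere. The 10 genes are red, the shaded stretch runs from SLC1A1 to C9orf72, the dotted line marks -1, and ZDHHC21 (-9.11) is drawn as a triangle at the lower edge; GLIS3 and MOB3B stand above the rest.

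Several genes of that stretch have well-known tasks. JAK2, the tyrosine kinase behind many cytokine receptors, was at 4.60, 5.29 and 4.58 in knockout and 7.18, 5.60 and 6.61 in wild type (difference -1.64 ± 0.45, adjusted p = 0.219 in limma). The inhibitor of cyclin-dependent kinases CDKN2B was at 7.24, 7.68 and 7.00 in knockout and 9.11, 8.60 and 8.29 in wild type (difference -1.36 ± 0.33, adjusted p = 0.168). CDKN2A, beside it, differed by -0.64 ± 0.25. None of these 3 genes overlapped between genotypes. KLHL9, an adaptor of a ubiquitin ligase that acts in mitosis, differed by -1.50 ± 0.30, and PLAA, a gene for a ubiquitin-binding protein, by -1.46 ± 0.30. MLLT3, a subunit of the super elongation complex, differed by -1.55 ± 0.34 and RIC1, which takes part in vesicle transport to the Golgi, by -1.40 ± 0.31. IFT74, a component of the transport particles of cilia, had -1.61 ± 0.49, C9orf72 had -1.63 ± 0.59 and SPATA6L had -2.25 ± 0.55. The last rests on knockout values of 1.97, 2.72 and 2.57, and with values under 4 set to 4 it was -0.67 (limma adjusted p = 0.633). The knockout arrays lay below all wild-type arrays for each of these genes, although none was called at an adjusted p under 0.05 over all 19458 probe sets. JAK2, MLLT3, C9orf72 and SPATA6L were among the dimmest 30% of probe sets by mean over the arrays.

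Of the 44 genes in the stretch besides the 10, limma called 0 lower and 1 higher, where 0.175% and 0.479% of all genes were called. At an unadjusted p under 0.05 there were 22 lower and 1 higher, against 5.24% and 8.29% of all genes. With a variance trend 3 were called lower and 1 higher, against 0.814% and 1.7% of all genes, and without moderation of the variance 0 and 0. The type I interferon genes IFNA2, IFNA8 and IFNE lie in the stretch too, and they differed by 0.00, 0.20 and -0.26, with overlap between genotypes in all 3 and low values, the highest being 6.13. Outside the stretch, GNE, the key enzyme of sialic acid synthesis, was also lower without overlap, at 7.19, 7.16 and 6.97 in knockout and 8.88, 8.36 and 8.31 in wild type (-1.41 ± 0.27, adjusted p = 0.0979).

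The stretch was also looked at by expression level. Genes were called brighter or dimmer by whether their mean over the 6 arrays lay above the median of all probe sets (7.48). That mean includes the knockout arrays, so 5 genes with a wild-type mean above 7.48 counted as dimmer, namely SLC1A1, UHRF2, DMAC1, ZDHHC21 and DENND4C. Without the 10 chosen genes, 12 of 13 brighter genes were lower, 10 of them without overlap, with a median of -0.77, whereas 43.3% of all brighter genes were lower and 7.71% lower without overlap. Of 31 dimmer genes, 20 were lower, 13 of them without overlap, with a median of -0.95, whereas 47.4% of all dimmer genes were lower and 6.42% lower without overlap. The difference between brighter and dimmer genes was not tested, and the medians do not separate them. The brighter gene that was not lower was PLIN2, a coat protein gene of lipid droplets, at 9.10, 9.06 and 9.55 in knockout and 8.67, 8.90 and 8.81 in wild type (0.44 ± 0.26). FREM1, PTPRD and TYRP1, which lie among the 10 genes and were higher, were dimmer, with wild-type means of 3.30, 4.33 and 5.08. The deposited values come without a detection measure, so how much of such low values is background was not tested.

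**Figure D3:**
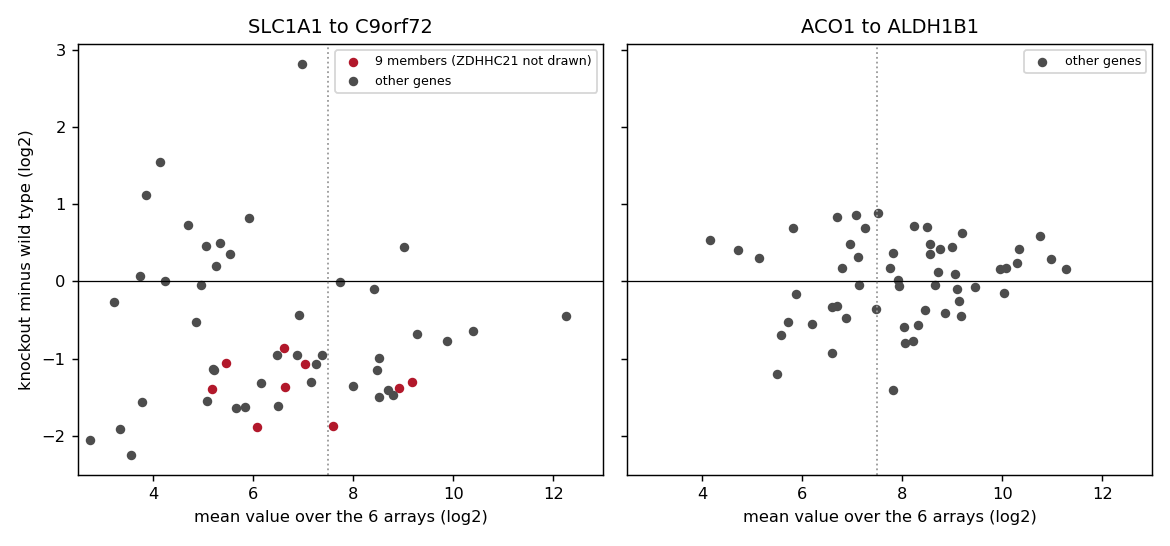
Difference between knockout and wild type (log2) against the mean over the 6 arrays (log2) for genes from SLC1A1 to C9orf72 (left, ZDHHC21 left out) and from ACO1 to ALDH1B1 (right); the 9 chosen genes are red and the dotted line is the median of all probe sets. On the left, 15 of 16 genes right of the line are below 0, or 12 of 13 without the chosen genes. On the right, where no chosen genes lie, 14 of 34 are.

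Only GLIS3 and MOB3B were called among the 9p genes outside the 10, and both rose. GLIS3, a zinc finger transcription factor gene that lies next to SLC1A1, was at 9.10, 9.50 and 9.42 in knockout and 6.26, 5.15 and 5.36 in wild type (difference 3.75 ± 0.36, limma adjusted p = 0.0104). MOB3B, a gene of the MOB family of kinase activators and the direct neighbour of C9orf72, was at 8.25, 8.56 and 8.36 in knockout and 6.13, 5.24 and 5.34 in wild type (difference 2.82 ± 0.32, limma adjusted p = 0.0196). Both were thus far apart between genotypes, with an increase right beside genes that were lower. The call of GLIS3 was lost without knockout array 1 (limma adjusted p = 0.0557), knockout array 3 (0.0784) or wild-type array 3 (0.0709), and without moderation of the variance (0.0675). That of MOB3B was lost without any 1 knockout array (limma adjusted p between 0.0550 and 0.108), without wild-type array 2 (0.0865) or 3 (0.143), and without moderation of the variance (0.0722).

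To set 9p beside the other chromosomes, the median difference was taken over every run of 11 neighbouring measured genes, 12881 runs in all. The 16 lowest runs all lay on 9p. The lowest of them, from SPATA6L to MLANA, had a median of -1.40, with all 11 genes lower, and held 0 of the 10 genes. The run from KDM4C to SNAPC3, with 8 of the 10 genes in it, had a median of -1.30. Next came chromosome 16, whose lowest run, from IST1 to WDR59, had a median of -1.21 with 10 of 11 genes lower. Of its genes 9 were lower without overlap, against 8 in the lowest run of 9p. A median of -1 or below was found in 33 runs, 23 of them on 9p and the others all on chromosome 16. The median over all runs was 0.07. Of the 16 lowest runs, 11 held some of the 10 genes, which were chosen for being lower. With those left out of the gene order, a choice made after the values were seen, the 8 lowest of 12871 runs lay on 9p, and 11 of 21 runs at -1 or below did. Runs overlap with each other and were not tested.

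**Figure D4:**
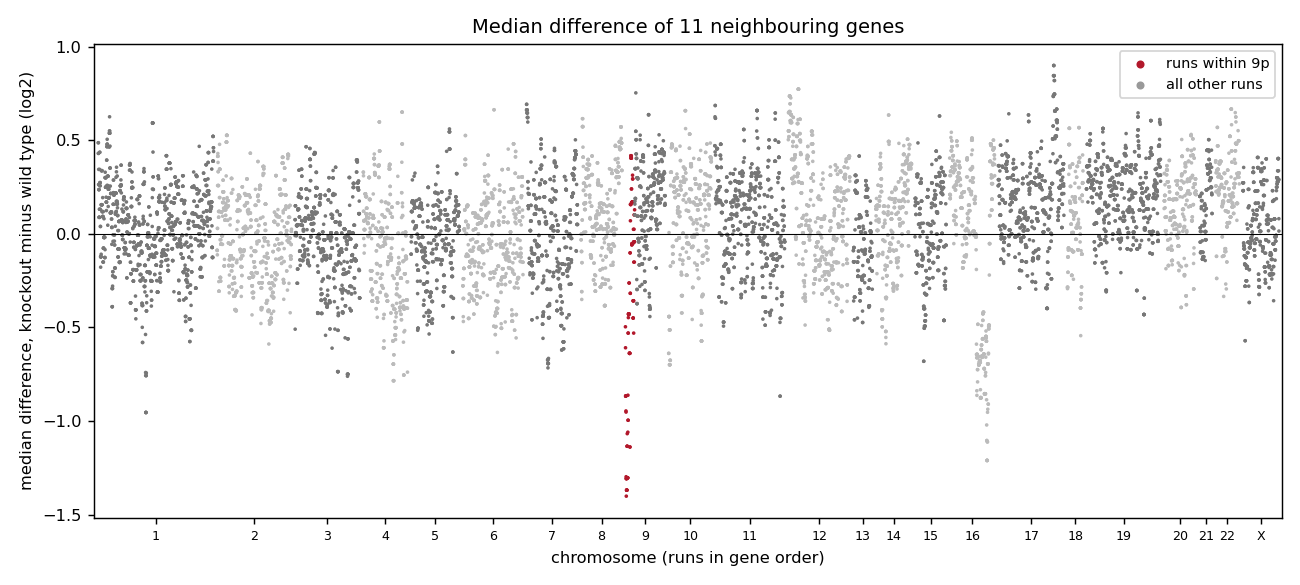
Median difference between knockout and wild type (log2) of every run of 11 neighbouring measured genes, in order along chromosomes 1 to 22 and X, with alternate greys for chromosomes and red for runs within 9p. The lowest red point is at -1.40, and the next chromosome, 16, reaches -1.21.

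Genes that work with the 10 or resemble them lie elsewhere in the genome, and their differences were spread to both sides of 0. Of 82 such genes, 38 (46.3%, against 45.3% of all genes) were lower and 44 higher with a median of 0.04, and limma called 0 at an adjusted p under 0.05. At an unadjusted p under 0.05, 4 were lower and 7 higher, close to the shares of 5.24% and 8.29% over all genes, and 0 were called with a variance trend or without moderation of the variance. The 22 other palmitoyltransferase genes were divided into 9 lower and 13 higher (median 0.15), of which 3 and 6 had no overlap, against 7.08% and 14.1% of all genes. Among those without overlap the largest differences were those of ZDHHC2, ZDHHC6 and ZDHHC13. ZDHHC2 was at 10.23 ± 0.46 in knockout and 9.15 ± 0.41 in wild type (SD, n = 3), ZDHHC6 at 9.80 ± 0.41 and 10.67 ± 0.20, and ZDHHC13 at 8.50 ± 0.39 and 9.31 ± 0.26, each without overlap. The other 4 subunits of the snRNA activating complex had a median of 0.45, with SNAPC5 (0.67 ± 0.25) and SNAPC4 (0.55 ± 0.27) higher without overlap, opposite to SNAPC3.

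Of the remaining nuclear factor I genes, NFIX was at 10.22 ± 0.21 in knockout and 9.34 ± 0.04 in wild type, without overlap, and the 3 had a median of 0.23. Demethylases related to KDM4C had 4 of 9 genes lower (median 0.04), and KDM4B was at 7.46, 7.45 and 7.45 in knockout and 8.19, 8.48 and 8.11 in wild type, without overlap. Relatives and partners of PSIP1 had 4 of 8 genes lower (median -0.05), with the methyltransferase gene KMT2B higher by 0.78 ± 0.29. Assembly factors of complex I were divided into 8 lower and 9 higher (median 0.00), with none apart between genotypes and NDUFAF3 farthest from 0 at 0.44 ± 0.34. Tight junction and polarity scaffolds had 4 of 10 genes lower (median 0.27, and 0.04 to 0.55 with 1 array left out), with MAGI3 at -1.35 ± 0.33, CGN at 1.14 ± 0.41 and TJP3 at 1.05 ± 0.29, each without overlap, although the nearest CGN values were both 5.79. Centrosome cohesion genes were lower in 6 of 7 cases (median -0.46, and -0.55 to -0.21 with 1 array left out), and the kinase gene NEK2 differed by -0.26 ± 0.24 without overlap. The 2 measured relatives of LURAP1L and TTC39B had a median of 0.00, with TTC39A at -0.41 ± 0.42.

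Genes whose pattern over the 6 arrays was most like the mean of the 10 were looked for among 6304 genes with an SD of at least 0.5 after median centring. The first were PLAA (Pearson r = 0.998) and CAAP1, a gene for an inhibitor of apoptosis (r = 0.998), both on 9p and neighbours of each other. They were followed by SERPINB1 on chromosome 6, PEG10 on chromosome 7 and CDC25C on chromosome 5 (r = 0.996, 0.996 and 0.994). These r describe 6 arrays in 2 genotypes, and the mean is weighted towards ZDHHC21. Without ZDHHC21 the first were GLDN on chromosome 15 (r = 0.999), PLAA (0.996), VCAN on chromosome 5 (0.995), TMEM200A on chromosome 6 (0.995) and CAAP1 (0.994).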

How the data were processed

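The authors deposited summarised probe set values of whole-transcript arrays on the log2 scale. RMA, R 2.11.1 and hg18 are named in the submitters' processing notes, without the single steps. That the scale is log2 was judged from the highest value of each array, 13.97 to 14.14. The number of arrays limits the precision.

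Of 19458 probe sets, 13301 had 1 gene symbol in the platform annotation, 2044 several and 4113 none in the table used; 13280 of the 13301 identifiers were found in a RefSeq table of GRCh38.p14, used for names, chromosomes and gene order alone, and for the promoters. For each of 13139 genes the probe set with the highest mean was used. The arm 9p was taken as all genes up to CNTNAP3.

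Genotypes were compared with limma 3.58.1 (R 4.3.3), with genotype as the only factor, over all probe sets, with Benjamini-Hochberg adjustment and a call at an adjusted p under 0.05. The code was tested on simulated data. A difference is the knockout mean minus the wild-type mean, and its SE comes from the fit. The members and the lists of related genes were chosen with earlier results of these data known. The genes named were the 10 members, the other 9p genes that were called or, up to 12, had the largest differences without overlap between genotypes, up to 3 per list of related genes, and the 5 of most similar pattern. Other names, as well as the stretch from SLC1A1 to C9orf72, were chosen after the values were seen. Alternatives were median centring, quantile normalization, a floor of 4, a variance trend, ANOVA without moderation, robust variance, omission of the dimmest 30% of probe sets, the replicate number as a block, the mean over a gene's probe sets and leaving out arrays.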

Additional observations from a re-analysis of the deposited data

How the results depend on the processing

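Each of the 10 genes stayed below 0 in all 126 values under the alternatives. They were chosen for being lower on these same arrays, so that direction was largely fixed in advance. The replicate block and the mean over probe sets could not change a difference, as replicate numbers are balanced over genotypes and each gene had 1 probe set. Omission of the dimmest probe sets only dropped genes, and the floor of 4 changed ZDHHC21 alone. Many of the 126 values thus could not move. The difference moved by more than the SD between arrays in 1 of the 126 values, that of ZDHHC21 with values under 4 set to 4 (-4.52). With the dimmest 30% of probe sets left out, MPDZ, ZDHHC21, TTC39B and CNTLN dropped out, and 5 of the 6 members that were left had no overlap. The median of all 10 lay between -1.49 and -1.25 with any 1 array left out, that of the genes towards the chromosome end between -1.10 and -0.71, that of the genes towards the centromere between -0.12 and 0.06, and that of the stretch from SLC1A1 to C9orf72 between -1.12 and -0.87. Lower genes of the stretch numbered 39 to 45 then, of them 31 to 35 without overlap, and 25 of 27 with the dimmest 30% left out. Shares over all genes were not taken under these alternatives, and fewer arrays make a lack of overlap easier to reach. The counts without overlap are therefore no measure of stability. The 4 genes among the members had a median of 0.62, of 0.35 to 1.01 with 1 array left out, and of 0.89 without both arrays of highest median, an alternative added after the data had been seen. There the nuclear factor I genes had 0.0083. With 1 array left out the demethylases ranged from -0.21 to 0.43.

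Calls over all probe sets numbered 111 (81 higher, 30 lower), 175 after median centring, 174 after quantile normalization, 169 with values under 4 set to 4, 184 without the dimmest 30% and 396 with a variance trend. They numbered 24 to 63 with 1 array left out and 7 without both arrays of highest median. The arrays share replicate numbers, but deviations of same-numbered arrays from their genotype means correlated at -0.24, -0.43 and 0.06, so the numbers were not taken to pair them. Across numbers, knockout array 2 and wild-type array 1 correlated at 0.49, and the other pairs between -0.29 and 0.23. An array effect shared by the genotypes under other numbers was not tested. With the replicate number as a block, 3 probe sets were called, GLIS3 and MOB3B were not (adjusted p = 0.150 and 0.233 in limma), and the differences of the 10 genes were unchanged. KLHL9, PLAA, RIC1 and GNE were called lower with a variance trend (adjusted p = 0.0159, 0.0138, 0.0243 and 0.0353), KLHL9, PLAA and GNE without the dimmest 30% (0.0424, 0.0443 and 0.0367), and PLAA after median centring (0.0439) and quantile normalization (0.0440). The causes of these changes were not tested.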
